A study of Mus musculus with 6 samples.

Results

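The 9 genes examined here carry the output of the circadian clock and were measured in mouse thyroid. They are the PAR bZIP transcription factors Dbp, Tef and Hlf, the bZIP repressor Nfil3, the E-box repressors Ciart, Bhlhe40 and Bhlhe41, and the output enzymes Wee1 and Usp2. The 9 members were chosen from the 21878 genes of the count table by name, with results of the comparison between the groups already known, so their differences between the groups are given as a description without a test. All 9 were listed in the table and all 9 had enough counts to enter the fit.

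Thyroid glands of female mice at 12 weeks of age were sequenced, with 3 libraries from Thy-Tet1+/+ mice (labelled control and called controls below, genotype WT) and 3 from Thy-Tet1-/- mice (labelled treatment, genotype TET1 KO). Tet1 encodes a dioxygenase that oxidises 5-methylcytosine in DNA. According to the study's methods, Tet1 was floxed and its deletion was directed to the follicular epithelial cells of the thyroid, and wild-type littermates served as controls. By contrast, the libraries hold RNA of the whole gland, in which fewer cells of a type and less RNA per cell cannot be told apart. Neither the labels nor the methods give the hour of the day at which the glands were collected, and the libraries of a group are described only as separate samples.

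In the circadian clock, CLOCK and BMAL1 (encoded by Arntl) bind E-box motifs and drive the genes of their own repressors, the period and cryptochrome proteins. E-boxes also drive Dbp, and DBP, TEF and HLF then activate genes with a D-box motif, to which NFIL3 binds as a repressor. Nuclear receptors such as REV-ERB alpha set the rhythm of Arntl and Nfil3, and BHLHE40, BHLHE41 and CIART repress E-box transcription. Dbp is known as one of the genes with the deepest daily rhythm in most mouse organs.

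The promoter sequences show where these motifs stand in the members. The RefSeq table for GRCm38.p6 held 8 promoters of 7 members, each of 300 bases, from 250 before to 50 after the start site. Bhlhe40 and Wee1 had none in it. The E-box CACGTG (a palindrome, so the same on both strands) occurred in 4 of the 8 windows, and in 7.15% of all 32851 promoters of the same length. Ciart had 3 matches, Bhlhe41 had 1, and each of the alternative Tef promoters had 1. The D-box, searched on both strands as TTATGTAA or TTACGTAA, was found in 0 of the 8 windows and in 1.06% of all promoters. The nuclear receptor motif AGGTCA, searched on both strands, was found in 1 of the 8 windows, that of Nfil3, and in 16.3% of all promoters. The windows of Dbp, Hlf and Usp2 held none of these motifs. The Usp2 window begins at chr9:44084670, inside the gene, whose annotated 5′ end at 44067021 was not searched. All 8 windows were rich in G and C, from 60.3% (Dbp) to 81.7% (Nfil3) against a median of 52.7% over all promoters, and held 9 to 54 CpG dinucleotides against a median of 7. Such matches describe the sequence and are not binding sites.

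The stretches that hold the matches, and the start of the Dbp window, are shown 5′ to 3′ on the strand of the gene, with matched motifs in capitals. Bases inside annotated exons were left out, except for 30-base stretches around a match in an exon. The Ciart stretch is chr3:95882252-95882478 on the minus strand, with motifs beginning 116, 58 and 44 bases before the start site. Bhlhe41 is shown for chr6:145865559-145865670 on the minus strand, with a motif 153 bases before the start. The Tef stretches are chr15:81802534-81802563 and chr15:81811164-81811413 on the plus strand, with motifs 127 and 138 bases before their respective starts. Nfil3 is shown for chr13:52981034-52981063 on the minus strand, where TGACCT, the reverse complement of AGGTCA, began 12 bases before the start. Dbp is shown for chr7:45704997-45705087 on the plus strand.
Ciart: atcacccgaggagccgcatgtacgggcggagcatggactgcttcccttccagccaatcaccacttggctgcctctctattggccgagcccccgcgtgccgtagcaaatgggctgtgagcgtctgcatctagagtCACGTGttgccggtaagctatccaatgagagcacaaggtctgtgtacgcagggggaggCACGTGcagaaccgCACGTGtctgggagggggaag
Bhlhe41: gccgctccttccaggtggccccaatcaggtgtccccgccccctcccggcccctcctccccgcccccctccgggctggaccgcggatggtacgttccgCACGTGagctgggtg
Tef (first promoter): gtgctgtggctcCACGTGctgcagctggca
Tef (second promoter): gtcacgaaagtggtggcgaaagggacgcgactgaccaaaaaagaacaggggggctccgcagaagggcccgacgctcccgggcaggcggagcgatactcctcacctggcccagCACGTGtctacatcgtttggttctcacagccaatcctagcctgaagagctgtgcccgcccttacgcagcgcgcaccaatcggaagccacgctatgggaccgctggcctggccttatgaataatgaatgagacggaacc
Nfil3: ggcgctcggaacTGACCTactaacacacat
Dbp: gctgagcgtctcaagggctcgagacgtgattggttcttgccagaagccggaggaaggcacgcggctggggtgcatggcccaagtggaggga

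Total counts were 8867683, 19950898 and 19491320 in control libraries 1, 2 and 3. They ranged from 16624425 to 17699501 in those labelled Thy-Tet1-/-, and 3 counts corresponded to between 0.150 and 0.338 CPM. Here CPM stands for a gene's counts per 1000000 counts of its library, after TMM scaling of library sizes. Tet1 itself, the targeted gene, had 48, 71 and 62 counts in control libraries 1, 2 and 3, and 172, 162 and 241 counts in libraries labelled Thy-Tet1-/-. Its mean level was 4.31 CPM ± 1.21 (SD, n = 3) in the former and 10.4 CPM ± 1.60 in the latter, opposite to the label, with a log2 fold change of 1.28 (SE 0.27). The counts cover the whole gene and do not separate the floxed exons. Whether the labels match the genotypes of the glands was not tested. Groups are named below by their labels, and every direction is given by label. The 8 follicular markers summed to between 255000 and 316400 CPM in controls and between 193100 and 238800 CPM in the others, without overlap, and most of the sum was Tg, the thyroglobulin gene (log2 fold change -0.43, SE 0.18). Of this list Iyd was lower by the limits given below (-0.63, SE 0.22) and Nkx2-1 was higher (0.65, SE 0.22), while the transcription factor gene Pax8 was at 0.42 (SE 0.11), short of the fold limit and without overlap. Markers of neighbouring tissue varied between libraries within both groups, with 6 skeletal muscle genes at 5260, 623 and 3019 CPM in controls and 85.5, 5698 and 14.5 CPM in the others, and 4 parathyroid genes between 192 and 31340 CPM. The 4 adipocyte markers summed to 219, 50 and 23.6 CPM in controls and 669, 268 and 96.0 CPM in the others, and Ucp1, the brown fat gene, met the limits (26.0 CPM ± 29.8 and 156.8 CPM ± 149, log2 fold change 2.62, SE 1.05). C cell markers (2429 to 5410 CPM) and endothelial markers (352 to 518 CPM) overlapped between the groups. The part of these markers in the values of the clock genes was not tested, apart from the muscle score used below. Of 14143 genes tested with edgeR's quasi-likelihood test, 9.2% met the limits used here, a fold change above 1.5 with an unadjusted p under 0.05, with 5.54% higher and 3.66% lower in the libraries labelled Thy-Tet1-/-. Only 0.113% had an adjusted p under 0.05, and 26.8% had values in one group that did not overlap those of the other.

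Of the 9 members, 6 were higher and 1 was lower in the libraries labelled Thy-Tet1-/- by these limits, and in the same 7 the groups did not overlap. Those that were higher were Dbp, Ciart, Hlf, Bhlhe41, Bhlhe40 and Tef, with log2 fold changes from 2.93 to 1.02. The lower member was Nfil3, at -1.11, and Wee1 and Usp2 overlapped between the groups. Because the members were chosen with this contrast known, nothing is read from these counts against the shares of all genes given above. The limits include a p, so meeting them only describes, for a member, the size of its difference against its spread, here and below, and is no evidence for it. The median log2 fold change of the members was 1.17, and that of all tested genes was 0.000634. Since the choice of members knew this contrast, nothing is read from that difference either.

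**Figure D1:**
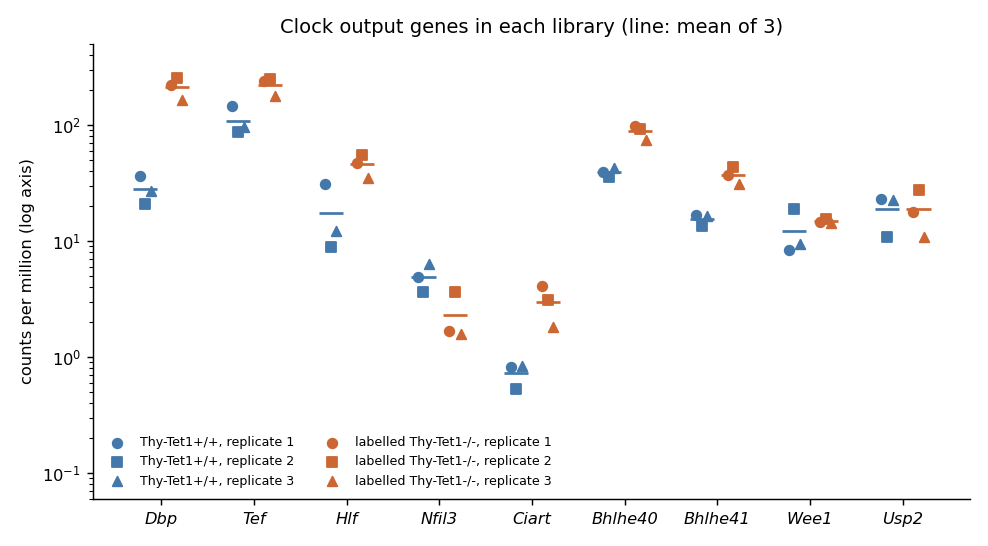
Level of each clock output gene in CPM (log axis) in 3 Thy-Tet1+/+ libraries (blue) and 3 libraries labelled Thy-Tet1-/- (orange). Symbols mark the replicate number and lines the group means. The groups are apart in 7 genes, of which Dbp has the widest gap, and overlap in Wee1 and Usp2.

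Dbp encodes the founding PAR bZIP activator (chr7:45705088-45710203, plus strand, mm10). Its counts were 308, 389 and 490 in control libraries 1, 2 and 3, and 4086, 4322 and 3222 in libraries 1, 2 and 3 labelled Thy-Tet1-/-. Scaled to library size, these were 36.5, 20.8 and 27.2 CPM and 222.6, 256.1 and 163.7 CPM. The lowest library labelled Thy-Tet1-/- thus lay far above the highest control library. The means were 28.2 CPM ± 7.92 and 214 CPM ± 46.8 (SD, n = 3). The log2 fold change was 2.93 (SE 0.26), which is 7.63-fold. Dbp shares 539 of its 2993 exonic bases with Sphk2 on the opposite strand. Sphk2, a sphingosine kinase gene, had 380, 826 and 936 counts in control libraries 1, 2 and 3 and 689, 586 and 775 in the others. These counts are not scaled to library size, and control library 1 had the fewest in total. After scaling, the log2 fold change of Sphk2 was -0.34 (SE 0.12). The use of strand in counting is not stated, and without it reads of the shared bases cannot be assigned to either gene.

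Tef, the PAR bZIP gene with the highest level per base in controls (chr15:81802421-81826863, plus strand), was measured at 144.7, 87.2 and 96.7 CPM in those libraries and at 240.6, 247.5 and 179.2 CPM in the libraries labelled Thy-Tet1-/-. The group means were 109.5 CPM ± 30.9 and 222.4 CPM ± 37.6, a log2 fold change of 1.02 (SE 0.23). All 3 libraries labelled Thy-Tet1-/- were above the controls, but control library 1, which had the fewest total counts, came closer to them than the other controls. Hlf, whose product hepatic leukemia factor completes the family (chr11:90336536-90390895, minus strand), showed this more strongly, with 31.1, 8.82 and 12.2 CPM in controls and 47.1, 55.3 and 35.0 CPM in the others. Its means were 17.4 CPM and 45.8 CPM ± 10.2 (SD), a log2 fold change of 1.42 (SE 0.47), and the SD of the controls was 69.2% of their mean. Without control library 1 the log2 fold change of Hlf was 2.12, and without control library 3 it was 1.22 and no longer met the limits.

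Within the PAR bZIP family the balance of transcripts differed between the groups as well as their sum. Per kb of the longest annotated transcript, Dbp made up 34.1%, 34.7% and 38.0% of the summed level of the family in controls, and 65.8%, 67.9% and 65.5% in those labelled Thy-Tet1-/-. Tef made up 57.8% ± 2.39 and 29.0% ± 1.41 (SD, n = 3), so that per kb the leading transcript was Tef in every control library and Dbp in every library labelled Thy-Tet1-/-. Hlf contributed 6.59% ± 2.51 and 4.62% ± 0.132. Without division by length, the ratio of Dbp to Tef in CPM was 0.2525, 0.2387 and 0.2811 in controls. In the libraries labelled Thy-Tet1-/- this ratio was 0.9253, 1.035 and 0.9135, so the lead of Dbp there depends on the transcript lengths used. The summed level was 58.3, 32.7 and 38.9 CPM per kb in controls and 184.1, 205.4 and 136.0 CPM per kb in the others. The share of Dbp varied less between libraries of a group than the summed level did.

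**Figure D2:**
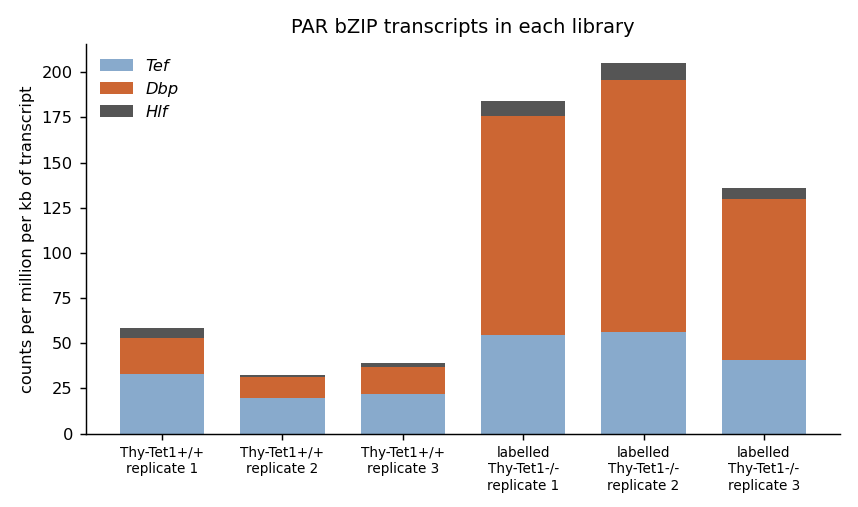
Stacked level of Tef, Dbp and Hlf in CPM per kb of the longest transcript, 1 bar per library. The sums run from 32.7 to 58.3 in controls and from 136.0 to 205.4 in those labelled Thy-Tet1-/-, and the Dbp section exceeds the Tef section in the latter 3 libraries alone.

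Nfil3 encodes the repressor that competes with the PAR bZIP factors for D-boxes (chr13:52967209-52981073, minus strand), and it had the opposite direction. Its counts were low, with 41, 68 and 114 in controls and 31, 61 and 31 in libraries labelled Thy-Tet1-/-. In CPM these were 4.86, 3.64 and 6.33 and then 1.69, 3.61 and 1.58, which left the groups apart by the narrow gap between control library 2 and labelled Thy-Tet1-/- library 2. The means were 4.94 CPM ± 1.35 and 2.29 CPM ± 1.15, a log2 fold change of -1.11 (SE 0.44). The call on Nfil3 depended on single libraries, since it no longer met the limits without control library 1 or 3 or without labelled Thy-Tet1-/- library 1 or 3. Without labelled Thy-Tet1-/- library 2, its log2 fold change was -1.60. That library also had the highest skeletal muscle sum of its group, and with the muscle score as a covariate the log2 fold change of Nfil3 was -0.68 (SE 0.38) and did not meet the limits. The ratio of Dbp to Nfil3 in CPM was 7.51, 5.72 and 4.30 in controls and 131.8, 70.9 and 103.9 in libraries labelled Thy-Tet1-/-.

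Ciart (also called Chrono) encodes a repressor of CLOCK and BMAL1 (chr3:95878503-95882251, minus strand) and had the lowest counts of the members in controls, 7, 10 and 15, against 75, 52 and 36 in those labelled Thy-Tet1-/-. The levels were 0.831, 0.535 and 0.832 CPM and 4.09, 3.08 and 1.83 CPM, with no overlap. Their means were 0.733 CPM ± 0.171 and 3.00 CPM ± 1.13, a log2 fold change of 2.04 (SE 0.45). Ciart was the only member left out when at least 10 counts in every library were required. Its promoter window is the one above with 3 E-boxes.

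Bhlhe40 and Bhlhe41, which encode the E-box repressors DEC1 and DEC2, both lie on chromosome 6 (chr6:108660629-108666925, plus strand, and chr6:145858243-145865558, minus strand). Bhlhe40 was at 39.0, 35.6 and 43.0 CPM in controls and at 98.2, 93.4 and 73.7 CPM in the libraries labelled Thy-Tet1-/-, a log2 fold change of 1.17 (SE 0.15). Bhlhe41 was at 16.7, 13.6 and 16.6 CPM and at 37.0, 43.6 and 30.9 CPM, a log2 fold change of 1.25 (SE 0.17). These were the smallest standard errors among the members, and the controls of each gene lay close together, at 39.2 CPM ± 3.70 for Bhlhe40 and 15.6 CPM ± 1.78 for Bhlhe41. The ratio of Bhlhe40 to Bhlhe41 in CPM was 2.52 ± 0.159 in controls and 2.39 ± 0.257 in the others (SD, n = 3). Annotated transcripts on the opposite strand cover 118 exonic bases of Bhlhe40 (2.51%, 0610040F04Rik) and 1280 of Bhlhe41 (19.0%, Gm43909). Opposite-strand transcripts also cover 2.45% of the exonic bases of Tef (Gm17597) and 4.15% of those of Usp2 (Gm39325 and Gm49380), and these 5 transcripts have no row of their own in the counts used here.

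The output enzymes did not separate the groups. Wee1, a kinase that holds cells before mitosis (chr7:110122046-110143286, plus strand), was at 8.42, 19.0 and 9.43 CPM in controls and at 14.7, 15.5 and 14.3 CPM in those labelled Thy-Tet1-/-. The 3 latter values lay inside the range of the former, and control library 2 was above all of them. The log2 fold change was 0.27 (SE 0.32) with all libraries, and without control library 2 it was 0.73 and met the limits. Usp2, a ubiquitin-specific protease (chr9:44067021-44095627, plus strand), was at 22.9, 10.8 and 22.8 CPM and at 17.98, 27.7 and 10.8 CPM, with equal means of 18.8 CPM ± 6.94 and 18.8 CPM ± 8.51 and a log2 fold change of 0.00 (SE 0.41). Its sign changed when control library 2 (-0.28) or labelled Thy-Tet1-/- library 2 (-0.38) was left out, so no direction can be given for it.

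Levels between genes were compared per kb of the longest annotated transcript. In the Thy-Tet1+/+ libraries the order of the means was Tef (24.9 CPM per kb ± 7.01), Dbp (15.3 ± 4.31), Bhlhe40 (12.6 ± 1.19), Usp2 (4.87 ± 1.80), Wee1 (3.59 ± 1.71), Hlf (3.08 ± 2.13), Bhlhe41 (2.55 ± 0.290), Nfil3 (2.44 ± 0.664) and Ciart (0.378 ± 0.0883). Neighbours overlapped in their range over the 3 libraries from Tef to Bhlhe40 and again from Usp2 to Nfil3, whereas Bhlhe40 was apart from Usp2 and Nfil3 from Ciart. In the libraries labelled Thy-Tet1-/- the order was Dbp (117 CPM per kb ± 25.5), Tef (50.5 ± 8.53), Bhlhe40 (28.4 ± 4.17), Hlf (8.11 ± 1.81), Bhlhe41 (6.06 ± 1.04), Usp2 (4.87 ± 2.20), Wee1 (4.34 ± 0.169), Ciart (1.55 ± 0.583) and Nfil3 (1.13 ± 0.566). Here Dbp, Tef and Bhlhe40 were each apart from the next, and Wee1 from Ciart, while Hlf, Bhlhe41, Usp2 and Wee1 overlapped as neighbours, as did Ciart and Nfil3. The range from the highest to the lowest member was wider in these libraries, with Dbp and Nfil3 at its ends.

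Within a group, several members varied together from library to library. Relative to the mean log2 CPM of their group, Dbp, Tef and Hlf were all highest in control library 1 (by 0.41, 0.44 and 1.05) and lowest in library 2 (by -0.40, -0.29 and -0.75). In the libraries labelled Thy-Tet1-/- all 3 were highest in library 2. The summed skeletal muscle markers had the same order of libraries within each group as these 3 genes, Bhlhe41 and Usp2, and with the muscle score as a covariate the log2 fold changes of Dbp, Tef and Hlf were 3.22, 1.24 and 1.86. Among the libraries labelled Thy-Tet1-/-, library 3 was the lowest for all 9 members, by 0.05 (Wee1) to 0.70 (Usp2) below the mean of the group. It was also lowest in the summed follicular, muscle, adipocyte, C cell and endothelial markers, but not in the parathyroid or epithelial ones. Its summed thymocyte and T cell markers were the highest of the group, 449 CPM against 1.25 and 1.24. In controls that sum was highest in library 1 (110.8 CPM), where Dbp, Tef and Hlf were highest as well. The part of these cell types in the values was not tested, apart from the muscle score. Cd8a, Rag1 and Dntt, markers of the thymocyte and T cell list, had no count in some libraries. The profiles of the members over the 6 libraries were compared by the root mean square difference of log2 CPM after centring each gene on its mean. The closest pair was Bhlhe40 and Bhlhe41 (0.11), followed by Tef with Bhlhe41 (0.21) and Tef with Bhlhe40 (0.23), and the farthest was Dbp with Nfil3 (2.06).

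The same measure over 14134 other genes named the genes most like each member. For Dbp, whose log2 CPM spanned 3.61, the nearest was the clock gene Per3 (0.35), followed by 1810062G17Rik (0.38), Ccdc108 (0.45), Gm3636 (0.46) and Wdr93 (0.52). The last 4 were at or under 2.85 CPM in every library, and Gm3636 had no count in control library 1. Bhlhe40 had the closest neighbour of any member, the tetraspanin gene Tspan4 (0.081). Other nearest genes were Rassf9 for Tef (0.086), Vpreb3 for Hlf (0.18), Luzp2 for Nfil3 (0.17), G0s2 for Ciart (0.12), Psd for Bhlhe41 (0.12), Asb9 for Wee1 (0.11) and Slc16a12 for Usp2 (0.14). The difference between the groups enters this measure, and it is given without a test.

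Beyond the members, 20 other genes of the clock were examined, of which 19 had enough counts (Rorb did not). This list too was chosen with earlier results of these data known. Its counts and p-values are therefore a description, and nothing is read from them against the shares of all genes. By the same limits 4 were higher (Per2, Per3, Cry2 and Nr1d1) and 4 were lower (Arntl, Clock, Npas2 and Per1), and in 13 the groups did not overlap, beside 9.2% of all tested genes that met the limits and 26.8% that did not overlap. With scaling to epithelial genes, which is described below and raised the median log2 fold change of all genes, 10 were higher and 2 lower. Under that scaling 4959 of all 14143 tested genes met the limits, 4909 of them higher. Without that scaling, the median absolute log2 fold change was 0.56 in this list and 0.26 in all tested genes, likewise only a description. Per1 alone had an adjusted p under 0.05 in edgeR's quasi-likelihood test (adjusted p = 0.0466, 7.36e-12 to 0.310 over the alternatives). DESeq2 gave 8 of the list an adjusted p under 0.05, beside 1192 of all 14143 tested genes.

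In the positive limb, the genes whose proteins drive E-boxes, 3 of 4 were lower. Arntl was at 20.9, 26.7 and 33.6 CPM in controls and at 10.7, 8.53 and 15.6 CPM in those labelled Thy-Tet1-/-, a log2 fold change of -1.22 (SE 0.27, edgeR adjusted p = 0.106, 0.0027 to 0.342 over the alternatives). Its partner Clock had a log2 fold change of -0.85 (SE 0.18, edgeR adjusted p = 0.0988, 0.000569 to 0.362) and Npas2, the paralogue of Clock, -1.47 (SE 0.28, edgeR adjusted p = 0.0947, 0.000267 to 0.312). None of the 3 overlapped between the groups. Under scaling to epithelial genes, described below, Arntl was at -0.66 and Clock at -0.32, and neither met the limits.

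In the negative limb the period genes differed in direction. Per3 was at 25.0, 10.4 and 10.3 CPM in controls and at 91.6, 80.4 and 74.0 CPM in the others, a log2 fold change of 2.45 (SE 0.37, edgeR adjusted p = 0.0730, 1.24e-09 to 0.310). Per2 was at 23.8 CPM ± 3.66 and 50.4 CPM ± 11.3 (SD, n = 3), with a log2 fold change of 1.08 (SE 0.20, edgeR adjusted p = 0.0915, 0.000207 to 0.321). Per1, which is also induced acutely by cell signalling, was lower, at 103.7, 109.5 and 118.8 CPM and then 50.5, 50.8 and 39.8 CPM, a log2 fold change of -1.24 (SE 0.13). Cry2, a cryptochrome gene, had a log2 fold change of 0.61 (SE 0.24, edgeR adjusted p = 0.234, 0.026 to 0.5), close to the limit. It did not meet the limits with the muscle covariate, where it was at 0.56, or when any library other than control library 2 was left out (0.42 to 0.67).

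Of the stabilising loop, Nr1d1, which encodes REV-ERB alpha, was higher, at 147.4 CPM ± 26.3 and 254.6 CPM ± 2.38, a log2 fold change of 0.79 (SE 0.15, edgeR adjusted p = 0.0919, 4.76e-05 to 0.325). Its paralogue Nr1d2 was at 149.1 CPM ± 35.7 and 219.9 CPM ± 16.4, without overlap. The log2 fold change of Nr1d2 was 0.56 (SE 0.18, edgeR adjusted p = 0.18), just short of the fold limit. The 6 modifiers, casein kinase and ubiquitin ligase genes, held 0 that met the limits, with 1 at an unadjusted p under 0.05 in the quasi-likelihood test.

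**Figure D3:**
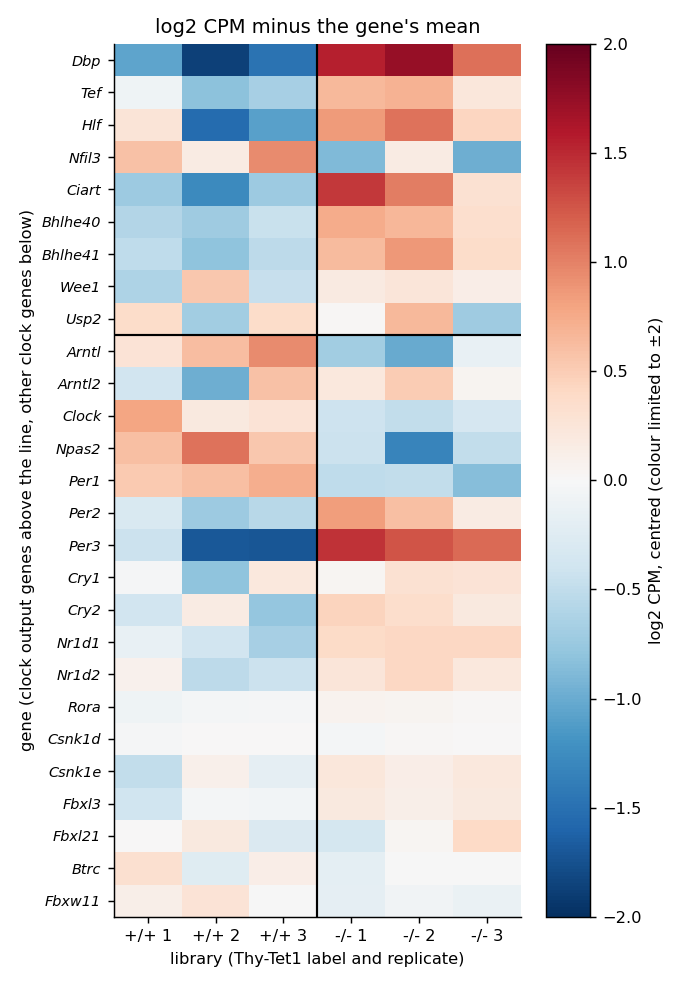
Log2 CPM of each gene minus its mean over the 6 libraries, for the 9 clock output genes (above the line) and other clock genes (below it), in Thy-Tet1+/+ libraries 1 to 3 (left) and libraries 1 to 3 labelled Thy-Tet1-/- (right). Red is above and blue below the gene's own mean. Dbp and Per3 have the strongest contrast, and Nfil3, Arntl, Clock, Npas2 and Per1 run opposite to them.

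The 2 further lists held targets of the PAR bZIP factors and genes rhythmic in many organs, chosen with earlier results of these data known. In them 3 of 11 tested genes met the limits, all from the rhythmic list, beside 9.2% of all tested genes. Of 7 genes described as targets of PAR bZIP factors in liver or brain, 6 had enough counts (Cyp7a1 did not), and 0 met the limits, a list too short to set against that share. The drug metabolism and haem genes Por, Alas1 and Nr1i3 overlapped between the groups, with log2 fold changes of 0.09, -0.28 and 0.11. Pdxk, the pyridoxal kinase gene, was the only target with an unadjusted p under 0.05, and it was lower, at 262.2 CPM ± 26.3 and 191.9 CPM ± 14.6 with a log2 fold change of -0.45 (SE 0.13, edgeR adjusted p = 0.144). Cyp2a5 had the largest log2 fold change that did not meet the limits, -1.41 (SE 1.42), with 40, 514 and 0 counts in controls. Cyp2a5 has a close copy in Cyp2a4, and counts split between such copies are uncertain.

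Of 5 genes known to be rhythmic in many mouse organs, 3 met the limits. Tspan4 was at 9.85, 10.1 and 11.2 CPM in controls and at 25.2, 27.1 and 18.6 CPM in the libraries labelled Thy-Tet1-/-, a log2 fold change of 1.19 (SE 0.18, edgeR adjusted p = 0.0748, 2.41e-05 to 0.312 over the alternatives). Tsc22d3, which encodes the glucocorticoid-induced leucine zipper, was lower, at 136.4, 379.9 and 195.3 CPM and then 79.2, 89.5 and 73.0 CPM (log2 fold change -1.56, SE 0.36, edgeR adjusted p = 0.112, 0.000478 to 0.348). Cdkn1a, which encodes the cell cycle inhibitor p21, was at 47.0, 150.0 and 105.6 CPM and then 24.6, 24.9 and 19.97 CPM (log2 fold change -2.13, SE 0.40, edgeR adjusted p = 0.0912, 3.71e-06 to 0.324). Of the 11 genes tested from the target and rhythmic lists, 0 had an adjusted p under 0.05 in edgeR. An unadjusted p under 0.05 was found for 4, beside 2676 of all 14143 tested genes. DESeq2 gave 4 an adjusted p under 0.05, beside 1192 of all 14143.

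**Figure D4:**
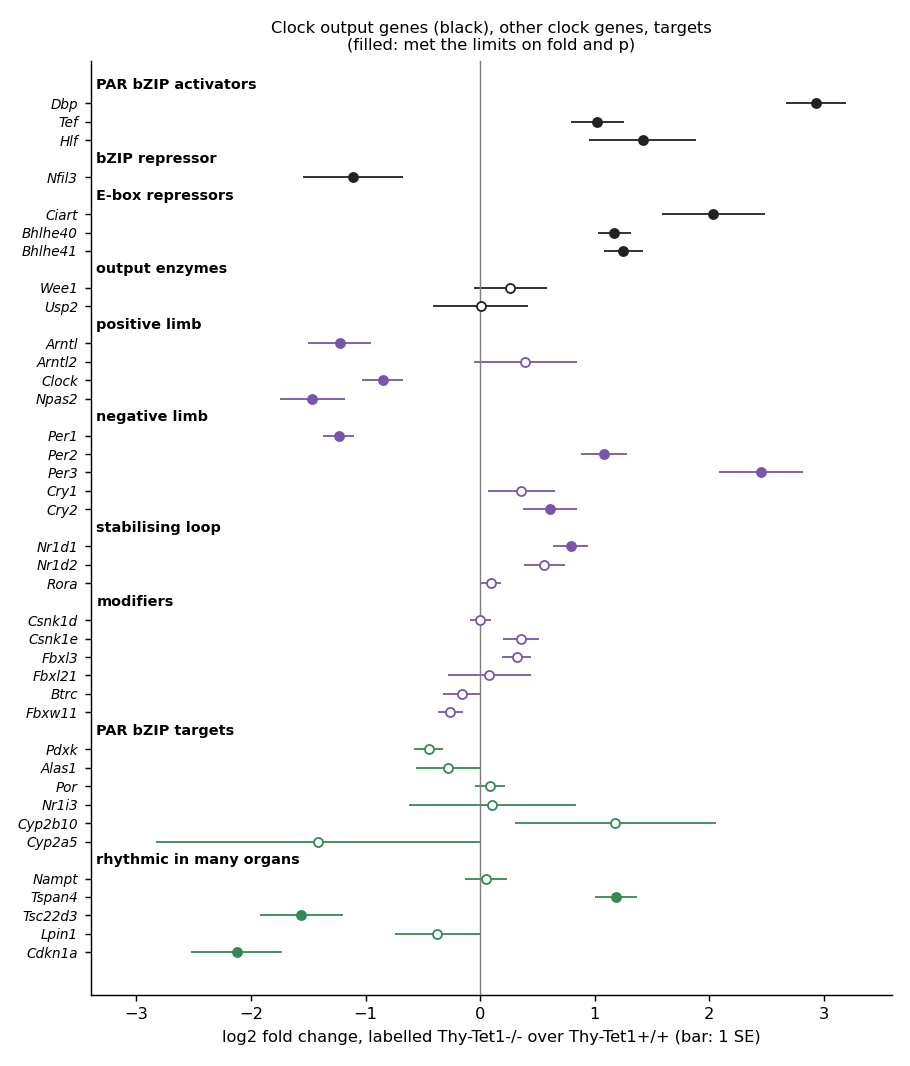
Log2 fold change of the libraries labelled Thy-Tet1-/- over the Thy-Tet1+/+ libraries, with bars of 1 SE. Clock output genes are black, other clock genes purple, and 11 genes of the PAR bZIP target and rhythmic lists green. Filled points met the limits on fold and unadjusted p. Values run from 2.93 for Dbp to -2.13 for Cdkn1a, and the modifiers and PAR bZIP targets are open points, of which Cyp2a5 and Cyp2b10 have the widest bars.

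The log2 fold changes of the members were recomputed under the other processing choices. Scaling to 10 epithelial genes, of which 4 were lower and 0 higher in the libraries labelled Thy-Tet1-/- by the limits, moved the median of all tested genes by 0.561, and the share of higher genes among those meeting the limits went from 60.2% to 99%. Relative to that median, the log2 fold change under this scaling was 2.89 for Dbp, 0.99 for Tef, 1.34 for Hlf, -1.14 for Nfil3, 2.03 for Ciart, 1.17 for Bhlhe40, 1.24 for Bhlhe41, 0.34 for Wee1 and -0.05 for Usp2. With the score of skeletal muscle markers as a covariate, Dbp was at 3.22, Tef at 1.24, Hlf at 1.86, Ciart at 2.26, Bhlhe40 at 1.28 and Bhlhe41 at 1.44. Nfil3 was at -0.68, Wee1 at 0.17, and Usp2 moved from 0.00 to 0.55 (SE 0.28). The 7 members with groups apart kept their sign under each of the 14 other choices that gave a value, with Ciart missing from 1 of them. With groups apart, leaving out 1 library could hardly change a sign, and the other choices refit the same counts, so this is no independent support.

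**Figure D5:**
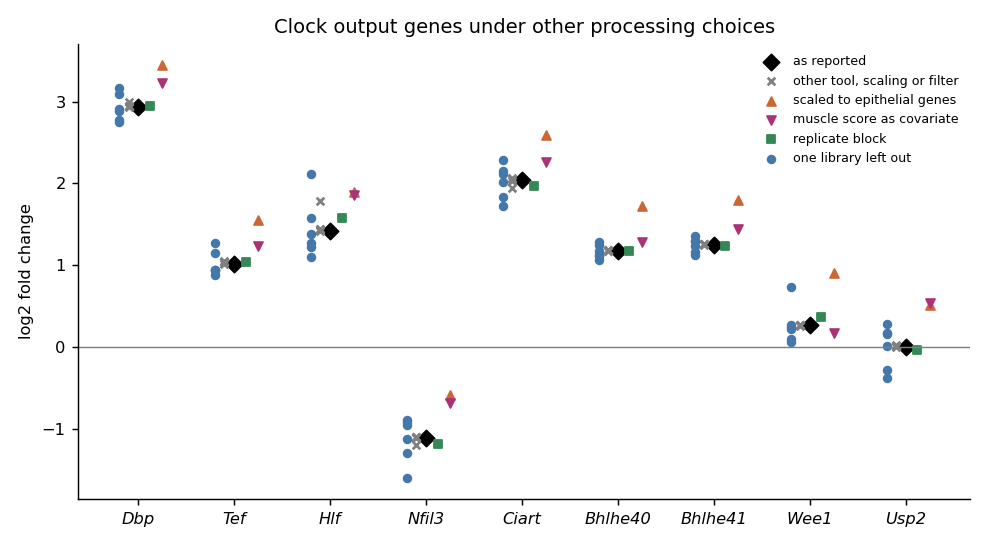
Log2 fold change of each clock output gene as reported (black diamonds), with 1 library left out (blue), with another tool, scaling factor or filter (grey), with the replicate block (green), with scaling to epithelial genes (orange) and with the muscle score as covariate (purple). Dbp stays between 2.75 and 3.45, Nfil3 between -1.60 and -0.58, and the values of Usp2 fall on both sides of 0.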

How the data were processed

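RNA-seq libraries from thyroid glands of 3 Thy-Tet1+/+ and 3 Thy-Tet1-/- female mice were analysed. For 21878 genes the authors deposited raw read counts, which are whole numbers and not normalized, and 4100 genes were at 0 throughout. The submitters' processing notes name the genome build mm10, whereas the aligner, the counting program, its use of strand and the annotation are not given in the sources used here. The library protocol describes polyadenylated RNA and directional libraries, but speaks of retinas while the stated source is thyroid. The table had 0 further columns per library, and NCBI gene identifiers were used to restore 27 symbols that had become dates. Libraries were grouped by their labels. The value of 1 clock gene is not reported here.

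The edgeR package (version 4.0.16, R 4.3.3) was used for the counts. Its filterByExpr function kept 14143 genes, TMM factors scaled the libraries, and the quasi-likelihood test compared the groups, with Benjamini-Hochberg adjustment over all tested genes. A gene met the limits when its log2 fold change exceeded 0.585 in size at an unadjusted p under 0.05. The standard error of a log2 fold change was its size divided by the square root of the F statistic. CPM used TMM-scaled library sizes, and log2 CPM had a prior count of 2. Levels per kb used the longest transcript of GENCODE M21, which also gave positions and exon overlaps. Promoters were taken from RefSeq (GRCm38.p6).

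The members, the rule for named genes and all lists were chosen with earlier results of these data known. The lists held other clock genes, PAR bZIP targets, rhythmic genes and cell markers. Named were the members, Tet1, and each gene of the clock, target and rhythmic lists that met the limits, with the largest change that did not. Genes with exons overlapping a member and the nearest profiles (5 for Dbp, 1 for each other member) were also named. Por, Alas1, Nr1i3, Pdxk and Nr1d2 were named after their values were seen. The alternatives were each library left out in turn, a block for the replicate number, a skeletal muscle score as covariate, scaling to 10 epithelial genes, a minimum of 10 counts in all 6 libraries, all genes without a filter, DESeq2 1.42.0 with its Wald test, voom from limma 3.58.1, and RLE size factors.

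Total counts were 8867683 to 19950898 per library. The common biological coefficient of variation was 0.327. No 2 libraries of a group agreed within sampling noise (chi-square per degree of freedom 38.7 to 88.6). Floors of 3 counts cover counting error only, and p-values measure the spread between these libraries, which may be in part technical. The code was tested on simulated counts.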

Additional observations from a re-analysis of the deposited data

How the results depend on the processing

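Genes with an adjusted p under 0.05 numbered 16 in edgeR, 1192 with DESeq2, 25 with at least 10 counts in every library, 2344 with scaling to epithelial genes, 0 with the muscle covariate (1633 at an unadjusted p under 0.05) and 0 with the replicate block (1900), and between 0 and 1 with 1 library left out (1769 to 2980). The genes meeting the limits numbered 1301, and 4959 with epithelial scaling, where 5 genes of the target and rhythmic lists in place of 3 met them. The cause of these differences was not tested. Members meeting the limits numbered 6 higher and 1 lower, 7 and 0 with epithelial scaling (Wee1 in, Nfil3 out), 6 and 0 with the muscle covariate or the replicate block (Nfil3 out), and between 5 and 7 higher with 1 library left out. The log2 fold changes of Dbp, Tef, Bhlhe40 and Bhlhe41 met the limits under each alternative. Replicate numbers were not used to pair the libraries, since the labels do not say that a number marks a litter or batch. Same-numbered libraries had correlations of deviations of -0.167, -0.372 and -0.193. These cannot exclude a pairing, because neighbouring tissue also varied between the libraries. With the replicate block, 1145 genes met the limits and Dbp had a log2 fold change of 2.94. Low counts limit Ciart and Nfil3 most.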
